A study of Mus musculus with 6 samples.

Results

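The genes described surround the feedback on signalling through the mitogen-activated protein kinases (MAPK), and not all of them hold it back. They include the dual-specificity phosphatases (Dusp genes), not all of which act on MAPK, the sprouty genes Spry1 to Spry4 and the spred genes Spred1 to Spred3. The receptor-level inhibitors Errfi1, Lrig1 and Lrig3, Phlda1, and the RAS inactivators Rasa1 and Nf1 are also among them. The transcription factors Etv1, Etv4 and Etv5, which carry the signal, complete the list. All these genes were chosen by symbol among protein-coding genes, by a rule that holds no measured value but was set with earlier results of these data known. They numbered 40 of 35127 genes in the files, 24 of them Dusp genes. All 40 were found, and 36 passed the filter on low counts and were tested. Bulk RNA-seq was carried out on mouse astrocytes from brains with an allograft of small cell lung cancer (SCLC; tumour libraries 1 to 3) and on astrocytes from brains given a sham injection (sham libraries 1 to 3). The labels name no strain, age, grafted line, time after injection or purification, nor the animal or culture behind each library. The p-values therefore measure only how far these libraries vary, and that variation may be technical. An allograft is of the same species as its host, so reads of graft cells count towards the same mouse genes.

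Growth factors bind receptor tyrosine kinases, which load RAS with GTP and so start the RAF, MEK and ERK kinase chain; stress signals drive the parallel JNK and p38 chains. The output is limited by genes that the pathway itself switches on. Sprouty and spred proteins act near the receptor and on RAS and RAF, and MAPK phosphatases remove the activating phosphates from ERK, JNK or p38. Transcripts of Dusp6, the sprouty genes and the PEA3 factors Etv1, Etv4 and Etv5 are widely used as readouts of ERK activity, in glia most of all downstream of fibroblast and epidermal growth factor receptors.

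Depth was 24524764 to 25800897 estimated reads in the tumour libraries and 22133723 to 23328811 in the sham libraries. Over the 14359 tested genes, the root mean square log2 difference was 0.226 to 0.24 between tumour libraries, 0.233 between sham 1 and sham 2, and 0.643 to 0.65 between sham 3 and the other sham libraries. Sham 3 thus stood apart from its group. The near libraries differed by more than sampling noise, with a chi-square of 2.88 to 3.68 for each degree of freedom (genes with 20 or more reads between both libraries), against 123.45 to 125.48 for sham 3 with the other sham libraries, and each was counted as a sample. Reads on mitochondrial genes made up 4.05% to 4.23% in the tumour libraries, and 6.66%, 6.2% and 4.2% in sham 1, 2 and 3. Of 10 astrocyte markers all were tested and 7 were lowest in sham 3. Their summed level was 3230 to 3340 CPM (reads of a gene per 1000000 reads of the library) in the tumour libraries and 4680, 4700 and 2740 CPM in sham 1, 2 and 3. The called markers went opposite ways. Aldh1l1 was higher, at 339 to 352 CPM in the tumour libraries and 228, 231 and 281 CPM in sham 1, 2 and 3. Gja1 was lower, at 530 to 553 CPM in the tumour libraries and 1210, 1200 and 707 CPM in sham 1, 2 and 3. The 8 pericyte and fibroblast markers summed to 3820 to 3850 CPM in the tumour libraries. Their sum was 3530, 3530 and 6020 CPM in sham 1, 2 and 3. Most of it was Col1a1 and Col1a2, at 1720 and 3830 CPM in sham 3. Sham 3 was above both other sham libraries in 5 of 7 tested markers and below both in 2, Dcn and Lum. The collagen genes, Dcn and Lum were thus present in all libraries. The pericyte markers Rgs5 and Kcnj8 were at most 0.544 CPM and 0.0907 CPM in any library. Of 14 SCLC markers 7 were tested and 0 called by edgeR, and Grp was at 0 in all 6 libraries. Epcam, an epithelial marker, had 0.331, 0.329 and 0.237 CPM in the tumour libraries and 0 in each sham library, where 3 reads are worth 0.125 to 0.136 CPM. Of 10 microglia and macrophage markers 5 were tested, and their summed level was 254 to 264 CPM in the tumour libraries and 173, 177 and 202 CPM in sham 1, 2 and 3. Among these Cd68, a lysosomal protein gene, had 45.8, 41.3 and 44.9 CPM in the tumour libraries, against 7.34, 5.07 and 10.2 CPM in sham 1, 2 and 3, and passed the test. Tmem119 had 86.0 to 87.7 CPM in the tumour and 79.6 to 110 CPM in the sham libraries, while Cx3cr1, Itgam and Ptprc, which define those cells, were below 0.4 CPM in every library. Neuron markers summed to 175 to 177 CPM in the tumour libraries and 149 to 225 CPM in the sham libraries, with Rbfox3 at 0 throughout, Map2 and Stmn2 above 50 CPM in every library, Gad1 called higher and Tubb3 and Syn1 called lower. Endothelial markers summed to 621 to 630 CPM in the tumour and 550 to 623 CPM in the sham libraries. Most of that sum was Cdh5, at 573 to 577 CPM in the tumour and 497 to 595 CPM in the sham libraries; Kdr was called lower, and Cldn5 was at 0 throughout. The part of such cells, and of the lower astrocyte marker sum of sham 3, in the results that follow was not tested. In bulk samples fewer cells of a type and less RNA per cell cannot be told apart.

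Of the 36 tested members 7 were higher and 2 were lower in the tumour libraries (edgeR, adjusted p below 0.05 over all genes), beside 10.5% and 10.4% of all tested genes. The 7 that rose were Dusp10, Errfi1, Dusp4, Spry2, Spred2, Spred1 and Nf1, and the 2 that fell were Dusp15 and Dusp3. The median log2 fold change was 0.32 over the tested members and -0.02 over all tested genes. The 3 tumour values lay above all 3 sham values in 14 members and below them in 6, against 22.2% and 21.9% of all tested genes. At an unadjusted p below 0.05 there were 15 of 36 members, beside 5214 of 14359 genes. Without sham 3 the fit called 20 members higher and 6 lower, where 29.1% and 28.6% of all genes were called. Without 1 of the other libraries it called 2 to 3 members higher and 1 to 2 lower. Calls over all genes dropped as well in those fits, to 536 to 850 higher and 355 to 758 lower. With all libraries they were 1506 and 1492. With the tumour libraries summed to 1 value and sham 1 and 2 to another, edgeR called 0 members and 0 of 15684 genes, with 2 members and 573 genes at an unadjusted p below 0.05. That fit has 1 tumour value against 2 sham values, too few to judge a call by; its log2 fold changes were 1.16 for Errfi1, 0.77 for Spry2 and -0.48 for Dusp3.

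**Figure D1:**
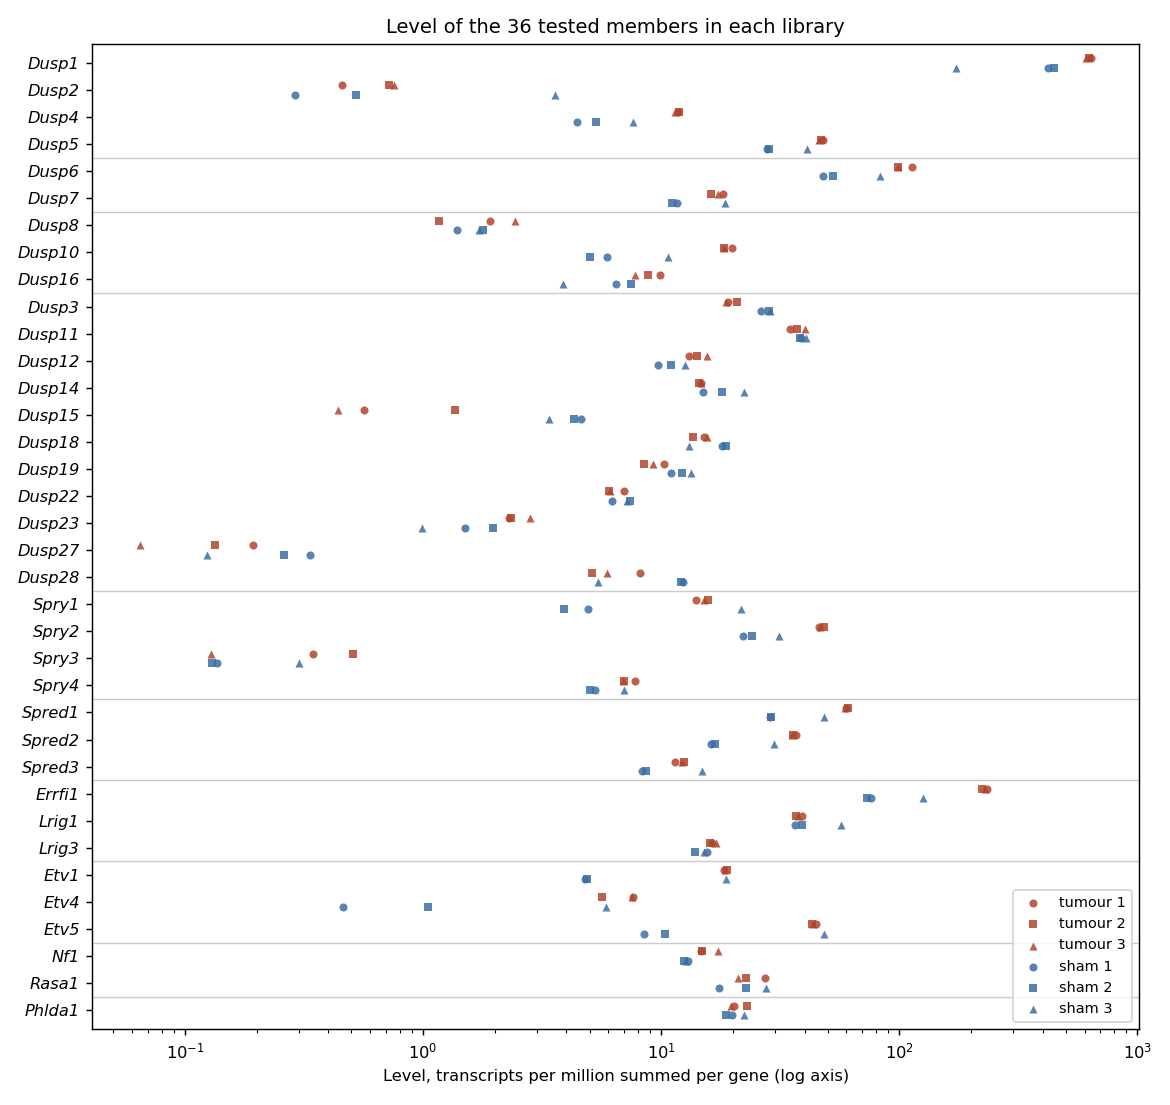
Level of the 36 tested members in each library, in TPM summed per gene on a log axis; red symbols are tumour libraries and blue symbols sham libraries, with sham 3 as a triangle, and grey lines separate the roles. Dusp1 and Errfi1 stand at the top in the tumour libraries, at 625 and 228 on average, and the sham 3 triangle lies to the right of the other sham symbols for most members.

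Levels per transcript length, in TPM (transcripts per 1000000 transcripts) as deposited and summed per gene, spanned a wide range. Dusp1 was the most abundant member, at 625 ± 16.1 TPM in the tumour libraries and 347 ± 151 TPM in the sham libraries (SD, n = 3 each). Errfi1 followed with 228 ± 5.69 TPM in the tumour and 91.7 ± 29.7 TPM in the sham libraries, and Dusp6 with 104 ± 8.11 TPM in the tumour and 61.0 ± 18.9 TPM in the sham libraries. At the other end, Dusp21 and Dusp26 had 0 reads in every library, which allows up to 3 reads (0.118 to 0.136 CPM). Dusp9 and Dusp13 had at most 0.544 CPM and 0.333 CPM in any library and were not tested either.

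The promoters of 4 members are shown because they hold matches to factor motifs and belong to genes whose values in sham 3 went in different directions. They are RefSeq windows on GRCm38.p6 that run from 250 bases before to 50 bases after the gene start, and capitals mark motif matches on either strand. The Dusp1 window lies at chr17:26508423-26508722 (minus strand) and that of Errfi1, the second of 2 RefSeq starts, at chr4:150854820-150855119 (plus strand). The Dusp5 window lies at chr19:53528895-53529194 (plus strand) and that of Etv5, the first of 2 RefSeq starts, at chr16:22439521-22439820 (minus strand).
Dusp1 promoter: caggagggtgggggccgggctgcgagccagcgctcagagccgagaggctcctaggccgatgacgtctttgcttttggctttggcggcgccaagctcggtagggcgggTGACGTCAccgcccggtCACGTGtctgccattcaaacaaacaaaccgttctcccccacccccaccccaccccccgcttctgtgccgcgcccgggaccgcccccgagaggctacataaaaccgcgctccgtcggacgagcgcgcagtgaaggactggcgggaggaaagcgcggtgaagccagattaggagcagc
Errfi1 promoter: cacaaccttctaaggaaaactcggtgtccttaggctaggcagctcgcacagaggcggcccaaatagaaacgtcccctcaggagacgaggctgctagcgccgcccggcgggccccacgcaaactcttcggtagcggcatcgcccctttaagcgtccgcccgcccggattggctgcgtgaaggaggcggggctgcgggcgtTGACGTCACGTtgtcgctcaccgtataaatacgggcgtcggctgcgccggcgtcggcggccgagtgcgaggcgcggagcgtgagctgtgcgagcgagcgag
Dusp5 promoter: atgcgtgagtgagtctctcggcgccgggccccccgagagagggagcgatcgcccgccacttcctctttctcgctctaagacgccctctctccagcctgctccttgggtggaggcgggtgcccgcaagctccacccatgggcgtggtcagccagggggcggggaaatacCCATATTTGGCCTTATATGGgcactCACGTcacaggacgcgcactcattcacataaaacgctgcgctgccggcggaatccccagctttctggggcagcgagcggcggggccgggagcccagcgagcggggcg
Etv5 promoter: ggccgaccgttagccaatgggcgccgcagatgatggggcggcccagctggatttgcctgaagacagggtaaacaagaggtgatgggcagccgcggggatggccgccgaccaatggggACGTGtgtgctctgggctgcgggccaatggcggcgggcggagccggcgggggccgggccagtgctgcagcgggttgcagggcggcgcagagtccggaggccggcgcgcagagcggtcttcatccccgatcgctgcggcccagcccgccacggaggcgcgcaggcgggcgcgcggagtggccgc

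Dusp1 and Errfi1 each hold the cyclic AMP response element TGACGTCA, the site of CREB and related factors. In the Dusp1 window a hypoxia response core, ACGTG, stands downstream of it on both strands, and in the Errfi1 window such a core overlaps it. Dusp5 holds 2 CArG boxes in a row, the element bound by serum response factor, followed by an ACGTG core on the minus strand of the window. Of the motifs searched the Etv5 window holds an ACGTG core. Windows were found for 30 of the 40 members, 36 windows in all, but not for Dusp4, Dusp9, Dusp15, Dusp19, Dusp21, Dusp26, Etv4, Phlda1, Spry3 and Spry4. TGACGTCA was in 8.33% of the members' windows and 1.79% of all 32851 windows of the same length, namely in those of Dusp1, Dusp8 and Errfi1. ACGTG was in 36.1% of the members' windows and 19.6% of all windows, the ETS core CCGGAAG in 8.33% and 8.86%, the AP-1 site TGACTCA in 2.78% and 5.2%, and a CArG box in 2.78% and 1.63%. The median GC content was 62.0% in the members' windows and 52.7% in all windows, and a match is a description of letters, not of binding.

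Among the MAPK phosphatases of the nucleus, which the pathway induces early, Dusp4 rose, while Dusp1 and Dusp5 were above every sham library without passing the test. Dusp4, which acts on ERK and JNK, had 22.7, 23.4 and 22.7 CPM in tumour libraries 1 to 3, against 9.02, 10.5 and 15.1 CPM in sham libraries 1 to 3. The groups did not overlap, and sham 3 took a place in the middle. The log2 fold change was 0.99 (SE 0.19, edgeR adjusted p = 0.0151). Its call was lost without any 1 tumour library and without sham 2. Dusp5, a phosphatase that prefers ERK, had 78.2, 78.6 and 77.9 CPM in the tumour libraries, against 48.7, 48.1 and 68.8 CPM in sham 1, 2 and 3. Sham 3 was again nearest to the tumour libraries, and the difference of 0.50 on the log2 scale (SE 0.14) missed the threshold with an edgeR adjusted p of 0.0517; Dusp5 passed with a stricter filter, DESeq2, limma-voom or without sham 3.

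Dusp1, the stress-induced phosphatase of p38, JNK and ERK, had the opposite order within the sham group. It stood at 764, 770 and 753 CPM in tumour libraries 1 to 3, against 541, 557 and 208 CPM in sham libraries 1 to 3. Here sham 3 was far below sham 1 and 2, and the log2 fold change of 0.81 had an interval of -0.04 to 1.66 (95%; edgeR adjusted p = 0.154). Without sham 3 the log2 fold change was 0.47. Reads of Dusp1 fell mostly on the coding transcript Dusp1-202, with 88.4%, 87.4% and 87.9% in the tumour libraries and 89.9%, 91.7% and 82.6% in sham 1, 2 and 3; the rest were assigned to transcripts that retain an intron. Dusp2, the fourth gene of this class and best known from immune cells, had under 0.8 CPM in all libraries except sham 3, where it had 3.63 CPM.

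**Figure D2:**
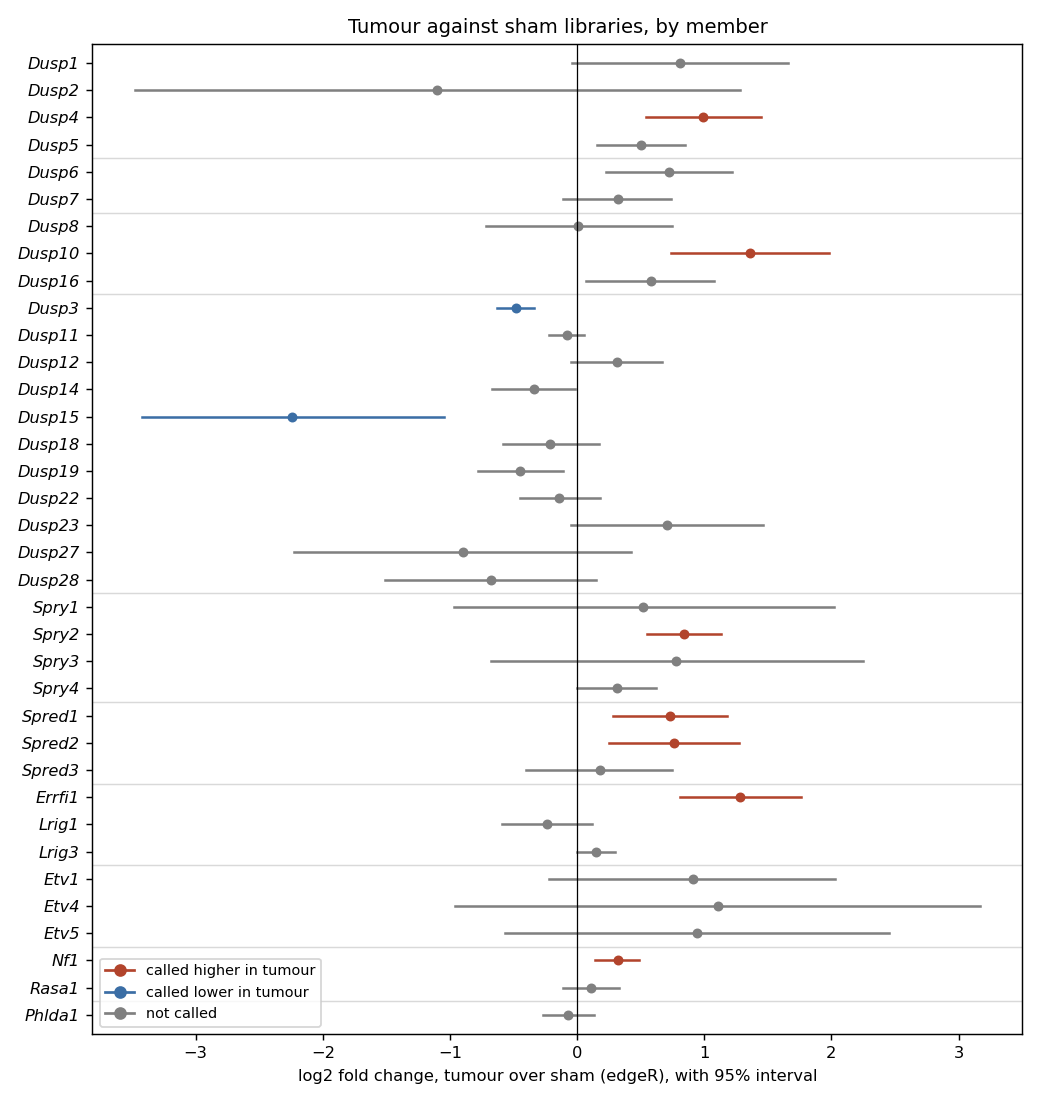
Log2 fold change of each tested member, tumour over sham, with its 95% interval from the edgeR fit; red marks members called higher, blue members called lower and grey members not called. Dusp10 has the largest rise at 1.36 and Dusp15 the largest fall at -2.24, and the intervals of Etv1, Etv4, Etv5 and Spry1, whose values in sham 3 differ from those in sham 1 and 2, are wide.

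The cytoplasmic ERK phosphatases Dusp6 and Dusp7 were not called. Dusp6, which prefers ERK over JNK and p38, had 162, 153 and 153 CPM in the tumour libraries, against 76.8, 77.8 and 129 CPM in sham 1, 2 and 3. The tumour libraries lay above all sham libraries, and sham 3 was close to them. The difference of 0.72 on the log2 scale (SE 0.21) just missed the threshold (edgeR adjusted p = 0.0508), and it passed with DESeq2, limma-voom, a stricter filter, transcript length offsets or without sham 3. Dusp7 had 37.9 to 40.9 CPM in the tumour libraries, against 27.9, 25.9 and 41.3 CPM in sham 1, 2 and 3, so the groups overlapped through sham 3.

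Of the phosphatases that favour JNK and p38, Dusp10 rose. Dusp10, also called MKP-5, had 34.9, 33.0 and 32.5 CPM in tumour libraries 1 to 3, against 11.0, 9.14 and 18.9 CPM in sham libraries 1 to 3. The groups did not overlap, with sham 3 between the others. At 1.36 on the log2 scale (SE 0.26, edgeR adjusted p = 0.0152) this was the largest rise among the members, and its call was lost without any 1 tumour library and without sham 1. Dusp16, which restrains JNK, had 27.5, 28.2 and 24.7 CPM in the tumour libraries, against 21.3, 20.4 and 12.2 CPM in sham 1, 2 and 3. As for Dusp1, sham 3 was the lowest, and the test was not passed (log2 fold change 0.58, SE 0.21, edgeR adjusted p = 0.0988). Dusp8 overlapped between the groups, at 4.32 to 5.37 CPM in the tumour and 2.90 to 6.61 CPM in the sham libraries.

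The atypical phosphatases, which lack the domain that docks to MAPK, held both members that fell. Of 14 such genes 11 were tested, 0 were called higher and 2 lower, beside 10.5% and 10.4% of all tested genes. Their median log2 fold change was -0.34. Dusp3 (VHR), which can dephosphorylate ERK and JNK, had 45.3, 46.0 and 46.7 CPM in the tumour libraries, against 62.4, 67.8 and 62.7 CPM in sham 1, 2 and 3. All 3 sham libraries were alike here, and the fall of 0.48 on the log2 scale (SE 0.06, edgeR adjusted p = 0.00416) kept its call whichever single library was left out. Dusp15, studied mainly in oligodendrocytes, had 0.745, 1.48 and 0.513 CPM in the tumour libraries, against 6.07, 4.32 and 2.54 CPM in sham 1, 2 and 3. The log2 fold change was -2.24 (SE 0.49, edgeR adjusted p = 0.0238) at low counts, and the call was lost without tumour 1 or 3 and without sham 1 or 2. Of 10 oligodendrocyte lineage markers 7 were tested, and their summed level was 367 to 373 CPM in the tumour libraries and 306, 289 and 450 CPM in sham 1, 2 and 3; Sox10 and Mog were below 0.4 CPM throughout. Pdgfra, a precursor marker also found in fibroblasts, had 264, 258 and 252 CPM in the tumour libraries, against 191, 181 and 127 CPM in sham 1, 2 and 3, and passed the test, while Olig1 had 33.7 to 37.8 CPM in the tumour and 46.8 to 171 CPM in the sham libraries and Mbp 11.9 to 13.7 CPM in the tumour and 1.91 to 7.85 CPM in the sham libraries. The part of such cells in the fall of Dusp15 was not tested.

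The other atypical members were not called. Dusp11, an RNA phosphatase, had 102, 101 and 104 CPM in the tumour libraries, against 105, 108 and 112 CPM in the sham libraries, with an interval of the log2 fold change from -0.22 to 0.05. The remaining tested genes, Dusp12, Dusp14, Dusp18, Dusp19, Dusp22, Dusp23, Dusp27 and Dusp28, had log2 fold changes between -0.90 and 0.71 and were not called. Among them Dusp14, Dusp19 and Dusp22 lay below every sham library in all 3 tumour libraries, and Dusp23 above.

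Among the sprouty genes Spry2 rose. Spry2 had 55.4, 59.9 and 57.3 CPM in tumour libraries 1 to 3, against 28.2, 30.0 and 38.1 CPM in sham libraries 1 to 3. Its groups did not overlap, and the rise of 0.84 on the log2 scale (SE 0.12, edgeR adjusted p = 0.00618) kept its call whichever single library was left out. Spry4 had 20.3 to 22.7 CPM in the tumour libraries, against 16.2, 15.0 and 20.2 CPM in sham 1, 2 and 3, and was not called (edgeR adjusted p = 0.14). Spry1 had 22.8, 26.2 and 25.6 CPM in the tumour libraries, against 8.66, 6.57 and 36.8 CPM in sham 1, 2 and 3. Sham 3 had the highest Spry1 of all libraries, and sham 1 and 2 the lowest. Its reads were divided very differently among its 3 coding transcripts from library to library (Spry1-203 took 13.1% to 88.0%), so only the sum per gene is used. Spry3 was at most 1.11 CPM.

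The spred genes, whose proteins bring neurofibromin to RAS, rose in 2 of 3 cases, beside 10.5% of all tested genes. Spred1 had 196, 201 and 194 CPM in tumour libraries 1 to 3, against 98.7, 100 and 158 CPM in sham libraries 1 to 3, a rise of 0.73 on the log2 scale (SE 0.19, edgeR adjusted p = 0.0385). Spred2 had 97.4, 95.8 and 96.6 CPM in the tumour libraries, against 45.4, 46.9 and 78.8 CPM in sham 1, 2 and 3, a rise of 0.76 on the log2 scale (SE 0.21, edgeR adjusted p = 0.0493). For both, sham 3 lay between the others, and both calls were lost without any 1 library other than sham 3; that of Spred2 was also lost without the filter and with transcript length offsets. Spred3 was not called, at 23.3 to 28.0 CPM in the tumour and 17 to 31.3 CPM in the sham libraries. Nf1, which encodes neurofibromin, the protein that returns RAS to its inactive state, rose slightly. It had 68.8, 77.7 and 77.3 CPM in the tumour libraries, against 57.8, 60.1 and 62.0 CPM in sham 1, 2 and 3 (log2 fold change 0.32, SE 0.07, edgeR adjusted p = 0.0258). Its call was lost without tumour 2 or 3, without sham 1 or 2, and with transcript length offsets. Rasa1, the other RAS inactivator, had 47.8 to 53.2 CPM in the tumour and 42.8 to 51.5 CPM in the sham libraries, with an interval of the log2 fold change from -0.11 to 0.33.

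Errfi1 was the most abundant of the members that rose. It encodes MIG6, which binds the kinase domain of the epidermal growth factor receptor and shuts it off, and lies on chromosome 4 from 150853919 to 150868892 (GRCm38). It had 418, 403 and 409 CPM in tumour libraries 1 to 3, against 143, 137 and 225 CPM in sham libraries 1 to 3. The tumour libraries were well above all sham libraries, with sham 3 between. The log2 fold change was 1.28 (SE 0.20, edgeR adjusted p = 0.00811), and the call was kept whichever single library was left out. Lrig1, which sends receptors of that family to degradation, had 131 to 133 CPM in the tumour libraries, against 133, 139 and 195 CPM in sham 1, 2 and 3 and was not called, and Lrig3 had 42.9 to 45.8 CPM in the tumour and 39.3 to 41.8 CPM in the sham libraries. Phlda1, an ERK-responsive gene in many cells, had 28.3 to 29.4 CPM in the tumour and 28.0 to 33.2 CPM in the sham libraries, with an interval of the log2 fold change from -0.27 to 0.13.

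The 3 PEA3 factors, which carry ERK signals to their target genes, differed widely within the sham group. Etv5, on chromosome 16 from 22381309 to 22439719, had 117, 115 and 113 CPM in tumour libraries 1 to 3, against 23.7, 28.3 and 128 CPM in sham libraries 1 to 3. Etv1 had 59.7, 63.9 and 59.9 CPM in the tumour libraries, against 18.3, 18.7 and 60.9 CPM in sham 1, 2 and 3. Etv4 had 7.58, 6.54 and 8.33 CPM in the tumour libraries, against 0.88, 0.873 and 8.71 CPM in sham 1, 2 and 3. All 3 genes were thus low in sham 1 and 2 alone, and sham 3 had a level like that of the tumour libraries. None was called: the edgeR adjusted p was 0.333 for Etv5, 0.219 for Etv1 and 0.402 for Etv4. Without sham 3 the log2 fold changes were 2.14, 1.72 and 3.09, and all 3 passed the threshold in that fit. Etv4, Spry1 and Dusp16 were singled out after their values were seen.

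**Figure D3:**
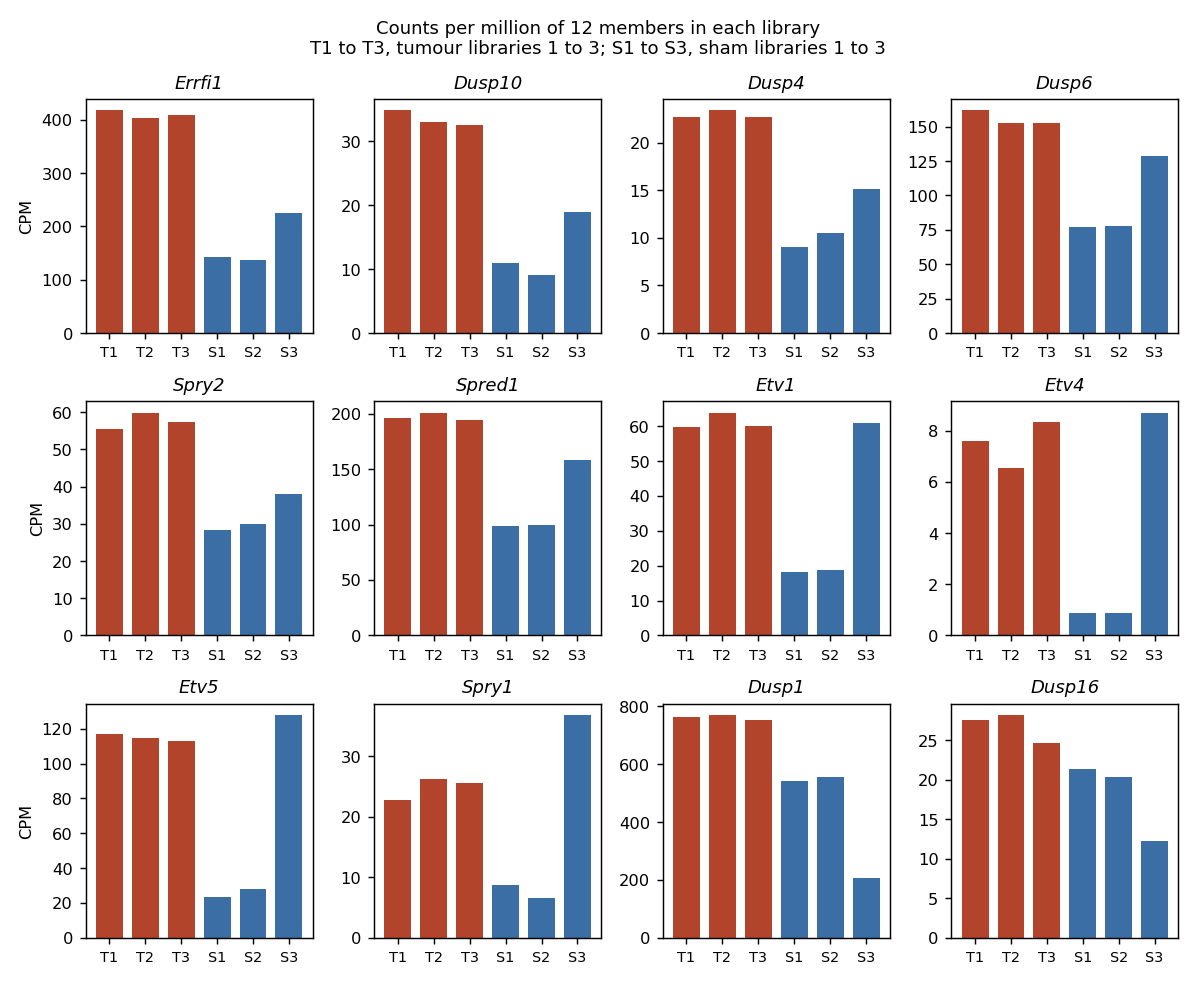
CPM of 12 members in each library, one panel per gene with its own axis from 0; red bars are tumour libraries 1 to 3 (T1 to T3) and blue bars sham libraries 1 to 3 (S1 to S3). Sham 3 takes a middle place for Errfi1, Dusp10, Dusp4, Dusp6, Spry2 and Spred1, near or above the tumour level for Etv1, Etv4, Etv5 and Spry1, and below all others for Dusp1 and Dusp16.

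Each sham library was also set apart against the mean of the tumour libraries on the log2(CPM + 0.5) scale. A difference of 2-fold or more upwards was found for 10 tested members against sham 1, 8 against sham 2 and 2 against sham 3, beside 5.26%, 5.27% and 6.28% of all tested genes. Differences of 2-fold or more downwards were found for 1, 1 and 2 members, beside 2.7%, 2.46% and 1.95%. Both members 2-fold above sham 3 were ones that were lowest there, Dusp1 (1.87) and Dusp16 (1.11). The 3 comparisons share the tumour libraries, and each sham library is a single sample with no spread of its own.

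Sham 3 was above both other sham libraries in 26 of 36 tested members, beside 43.8% of all tested genes, and was the lowest of all 6 libraries in 5, beside 27.4%. It lay between sham 1 and 2 on one side and the tumour libraries on the other in 11 members (30.6%, against 19.8% of all tested genes), and at or past the tumour level in 11 (30.6%, against 27.1%). Over the members alone, the root mean square log2 difference was 0.631 to 0.687 between tumour libraries and sham 3, 0.984 to 1.07 between tumour libraries and sham 1 or 2, and 1.02 to 1.04 between sham 3 and sham 1 or 2. Over all tested genes these were 0.6 to 0.607, 0.612 to 0.621 and 0.643 to 0.65.

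Ligands of the receptors that start the pathway came next. Of 21 ligand genes 19 were tested, 5 were higher and 0 lower (edgeR), beside 10.5% and 10.4% of all tested genes. Their median log2 fold change was 0.43. Ereg, encoding the epidermal growth factor family member epiregulin, had 83.0, 80.3 and 82.0 CPM in the tumour libraries, against 26.4, 23.8 and 29.7 CPM in sham 1, 2 and 3 (log2 fold change 1.62, SE 0.09, edgeR adjusted p = 0.000307). Tgfa, encoding another ligand of that receptor, had 12.1, 12 and 12.5 CPM in the tumour libraries, against 4.35, 4.57 and 4.76 CPM in the sham libraries. Hbegf, also such a ligand, had 208, 214 and 208 CPM in the tumour libraries, against 63.0, 57.2 and 63.2 CPM in the sham libraries. For these ligands the 3 sham libraries differed little, with sham 3 slightly above both others. They were named for having the smallest p of the list, which favours genes with alike sham values. Other ligands differed more within the sham group. Pdgfb had 4.05, 4.16 and 9.57 CPM and Fgf1 42.4, 43.1 and 14.8 CPM in sham 1, 2 and 3.

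Among 18 receptor tyrosine kinases 17 were tested, 5 were higher and 1 lower, beside 10.5% and 10.4% of all tested genes. The one that fell was Egfr, the receptor that Errfi1 acts on, with 199, 199 and 204 CPM in the tumour libraries, against 471, 492 and 289 CPM in sham 1, 2 and 3. The 5 that rose included Igf1r (log2 fold change 1.02), Met (0.67) and Insr (0.56), the receptors for insulin-like growth factor, hepatocyte growth factor and insulin. Of 24 genes of the RAS and ERK chain itself, all tested, 3 were higher and 2 lower beside the same shares of all genes, with a median log2 fold change of -0.05. Rras2, a RAS relative, had the largest of these changes at 0.65, and Ptpn11, encoding the phosphatase SHP2, fell by 0.30 on the log2 scale. Of 18 genes of the JNK, p38 and ERK5 chains, all tested, 3 were higher and 2 lower, again beside those shares. Among the called genes were Mapkapk2 (0.39), a kinase downstream of p38, and Map3k7 (-0.39).

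A further list held 25 genes taken as other inhibitors of RAS and ERK. Of these 22 were tested, 5 were higher and 1 lower, beside 10.5% and 10.4% of all tested genes. Their median log2 fold change was 0.01. Rasa4, encoding a calcium-triggered RAS inactivator, had 33.1, 30.5 and 31.9 CPM in the tumour libraries, against 7.83, 8.40 and 10.9 CPM in sham 1, 2 and 3. This was the largest of these changes, at 1.82 on the log2 scale (SE 0.14, edgeR adjusted p = 0.000815). Cblb (0.49), Lrig2 (0.31), Spint2 (0.79) and Dok1 (0.84) also rose, and Pea15a, whose protein holds ERK in the cytoplasm, fell (-0.42). Spint2 was counted in this list, but it encodes an inhibitor of serine proteases and not of RAS or ERK.

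ERK-responsive early genes, some of which respond within minutes of a stimulus, separated sham 3 in the other direction. Of 23 such genes, all tested, 18 were lowest of all 6 libraries in sham 3, and the median log2 difference of sham 3 from the mean of sham 1 and 2 was -1.60 for this list and 0.36 for the feedback members. Fos had 1270, 1270 and 1250 CPM in the tumour libraries, against 1540, 1610 and 166 CPM in sham 1, 2 and 3. Atf3 had 37.9, 38.7 and 39.0 CPM in the tumour libraries, against 84.0, 88.2 and 1.18 CPM in sham 1, 2 and 3. Dusp1 had the same order within the sham group, with sham 3 lowest, while the PEA3 factors were higher in sham 3 than in sham 1 and 2. Against these, Fosl1, encoding the late AP-1 subunit FRA-1, had 44.7, 44.8 and 48.8 CPM in the tumour libraries, against 4, 4.20 and 28.7 CPM in sham 1, 2 and 3. Plaur, the urokinase receptor gene, had 8.41, 9.91 and 9.16 CPM in the tumour libraries, against 0.528, 0.333 and 8.85 CPM in sham 1, 2 and 3. Of the list 3 genes were higher and 0 lower in the test, namely Fosl2 (0.87), Maff (1.65) and Klf4 (0.55), beside 10.5% and 10.4% of all tested genes. Without sham 3 there were 10 and 11, where 29.1% and 28.6% of all genes were called. Fos, Atf3, Fosl1 and Plaur were named after their values were seen.

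**Figure D4:**
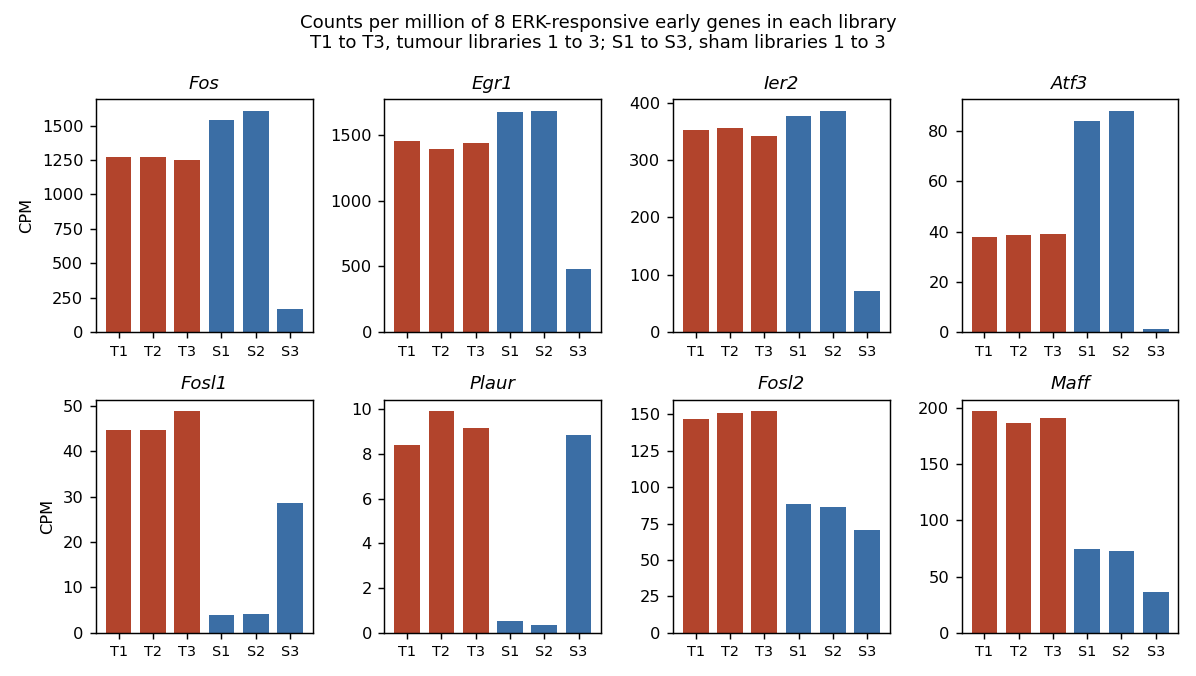
CPM of 8 ERK-responsive early genes in each library, each panel with its own axis from 0; red bars are tumour libraries 1 to 3 (T1 to T3) and blue bars sham libraries 1 to 3 (S1 to S3). Fos, Egr1, Ier2 and Atf3 are lowest in sham 3, whereas Fosl1 and Plaur are higher in sham 3 than in sham 1 and 2, and Fosl2 and Maff are above every sham library in all tumour libraries.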

How the data were processed

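RNA of 3 tumour and 3 sham astrocyte libraries was measured; groups and numbers come from the sample titles. The build mm10 and the tools Salmon (0.8.2) and DESeq2 (1.28.1) are named, per the submitters' processing notes. The deposited files hold estimated counts and TPM per transcript, with lengths and effective lengths in bases, per the file headers. No source names the kit or its strandedness; overlapping genes may therefore share reads.

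Of 113116 transcripts 112841 were matched by identifier to GENCODE M21 (GRCm38), and expected counts were summed per gene and rounded. TPM values deposited by the authors were summed per gene and used for levels and length offsets only. Tests used edgeR 4.0.16 in R 4.3.3 (TMM, filterByExpr with a minimum count of 10 and total of 15, robust quasi-likelihood fit on group, Benjamini-Hochberg threshold 0.05 over all genes). CPM uses TMM library sizes; fold changes set tumour over sham, with SE from the F statistic (absolute log2 change over its square root). Pairs of libraries were compared by chi-square per gene. Alternatives used DESeq2 1.42.0, limma 3.58.1 (voom) and other settings. The tests were tried on simulated data.

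Members and lists were chosen with earlier results of these data known. The rule was to describe every called member of at least 1 CPM and the 8 most abundant members not called; up to 4 called genes of each list could be named. Spint2 and Dok1 were named beyond it. Some genes of the lists are not reported here.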

Additional observations from a re-analysis of the deposited data

How the results depend on the processing

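Over 15 alternatives, the calls of Dusp3, Errfi1 and Spry2 were lost only with the near libraries summed, a fit of 1 tumour value against 2 sham values that called 0 members and 0 genes and is too small to show stability or its lack (log2 fold changes -0.48, 1.16 and 0.77). Those of the other 6 called members were lost in more. Without 1 library each, 2 to 20 members were called higher and 1 to 6 lower, and 536 to 4250 genes higher and 355 to 4179 lower, both upper ends without sham 3. Transcript length offsets called 969 genes lower. Signs turned for Phlda1 (0.01 with length offsets), Dusp12 (-0.01 with protein-coding transcripts only), Dusp8 (-0.26 to 0.28 without 1 library each) and Dusp2 (-1.62 to 0.95 likewise, positive without sham 3). The causes were not tested. Low counts limit Dusp2, Dusp15, Dusp27 and Spry3.

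No pairing by replicate number was seen: deviations of same-numbered libraries from their group means correlated at 0.016, -0.016 and 0.008. Sham 3 dominates the deviations of the sham group, so this check cannot exclude a pairing. A replicate block called 4 members higher and 2 lower, without Nf1, Spred1 and Spred2 (edgeR adjusted p = 0.0602, 0.0601 and 0.0609), and 829 genes higher and 607 lower.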
